A study of Mus musculus with 2 samples.

Results

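The energy of most animal cells comes from oxidative phosphorylation, and the nuclear genes for its 5 enzyme complexes were followed here through the immune cells of mouse tumours. The group was chosen by gene symbol. No measured change entered the rule, although earlier results of these data were known when it was chosen. The symbols were Ndufa, Ndufb, Ndufc, Ndufs, Ndufv and Ndufab1 (complex I), Sdha to Sdhd (complex II) and Uqcr (complex III). For complex IV they were Cox4i and Cox5 to Cox8, and for complex V Atp5. Of 47730 features in the files, 89 matched these symbols. Of these, 4 were left out as pseudogenes, and Cox7b2, Cox8b and Cox8c because they held under 20 UMIs (unique molecular identifiers, 1 per captured transcript) over both libraries. This left 82 members: 36 of complex I, 4 of complex II, 8 of complex III, 17 of complex IV and 17 of complex V. The 3 genes left out by the minimum held 0 UMIs, and the member nearest to it, Cox4i2, held 84. Ndufa4 and Ndufa4l2 were counted with complex IV, where Ndufa4 protein is found. Atp5s and Atp5sl carry the family name but are not subunits of the enzyme itself.

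Single-cell RNA was sequenced from the 3′ end (10x Genomics) in live CD45+ cells sorted from dissociated tumours of C57BL6\J mice. Every mouse had been ovariectomised, which removes the ovarian source of estrogen. One group then received placebo and the other E2, the usual abbreviation of estradiol. Each group held 1 library, so each difference below lies between 2 libraries, has no replicate check and was given no p-value. Treatment and library cannot be told apart, and the intervals cover counting error only. Nothing in the sources used here states how much E2 was given or for how long, which tumour it was, or the age and number of the mice.

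Complex I passes electrons from NADH, and complex II from succinate, to ubiquinone. Complex III hands them to cytochrome c and complex IV to oxygen, and the proton gradient that complexes I, III and IV build drives ATP synthesis by complex V. The catalytic cores of complexes I, III and IV include subunits encoded in mitochondrial DNA, while the members described here are made from nuclear genes and imported. Among immune cells, neutrophils are known for few mitochondria and for living largely on glycolysis, whereas macrophages and dividing lymphocytes use both routes.

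Depth differed between the libraries: 3505 barcodes with 24545595 UMIs in placebo (median 5128 per barcode) and 5791 barcodes with 52628133 UMIs in E2 (median 8049). After filtering, 2634 of 3392 placebo cells (77.7%) and 4572 of 5497 E2 cells (83.2%) fell into exactly 1 marker gate. Levels are given for 12 gated classes, and the libraries were compared in detail in the 4 that held at least 100 cells in each: T (1031 placebo and 848 E2 cells), monocyte/macrophage (782 and 2047), neutrophil (191 and 469) and cDC2, the conventional type 2 dendritic cells (102 and 251). The check markers of each class were at least 2-fold higher inside its gate than outside, except Sirpa in cDC2. Fibroblast-gated cells (19 and 52) ran against the sort: a UMI of Ptprc, the gene for CD45, was found in 3.85% of E2 cells and in 0 of 19 placebo cells, a count that still allows 15.8% of cells with a UMI. The libraries shared 95 barcodes, of which 36 differed at least 10-fold in UMIs and 7 were fibroblast-gated in both. They held 9 of the 19 placebo fibroblast-gated cells, so values of that class are given with and without them. All 37 mitochondrially encoded features, among them 13 subunits of the same complexes, held 0 UMIs in both libraries, so only the nuclear part of each complex could be read.

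Members took 2.002% of all UMIs of the placebo library (491371) and 2.25% of the E2 library (1183846). Most classes lay within a narrow band, and neutrophil-gated cells lay far below it. Basophil-gated cells (31 in placebo and 12 in E2) also lay low, at 0.924% and 0.981%. They fell under the minimum of 50 cells over both libraries and are not among the 12 classes. In the placebo library the share was 2.47% in fibroblast-gated cells (1.85% without the barcodes found in both libraries), 2.38% in cDC2, 2.20% in monocytes/macrophages, 2.19% in pDC (plasmacytoid dendritic cells), 2.11% in cDC1, 1.9985% in ILC2 (type 2 innate lymphoid cells) and 1.98% in T cells. It was 1.89% in NK cells, 1.73% in mature dendritic cells, 1.596% in B cells, 1.39% in mast cells and 0.550% in neutrophils. Counting intervals of neighbours overlapped from monocytes/macrophages through pDC to cDC1, and between ILC2 and T cells.

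In the E2 library the order began with cDC2 (2.45%) and monocytes/macrophages (2.39%). It went on through pDC (2.28%), NK (2.27%), T (2.26%), ILC2 (2.20%), fibroblast-gated cells (2.19%) and cDC1 (2.19%), whose intervals overlapped from each to the next. Mature dendritic cells (1.91%), mast cells (1.67%), B cells (1.44%) and neutrophils (0.712%) came last. Single cells gave a like picture: the median cell held 2.08% and 2.24% member UMIs among monocytes/macrophages, 1.78% and 1.96% among T cells, and 0.481% and 0.642% among neutrophils, in placebo and E2.

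**Figure D1:**
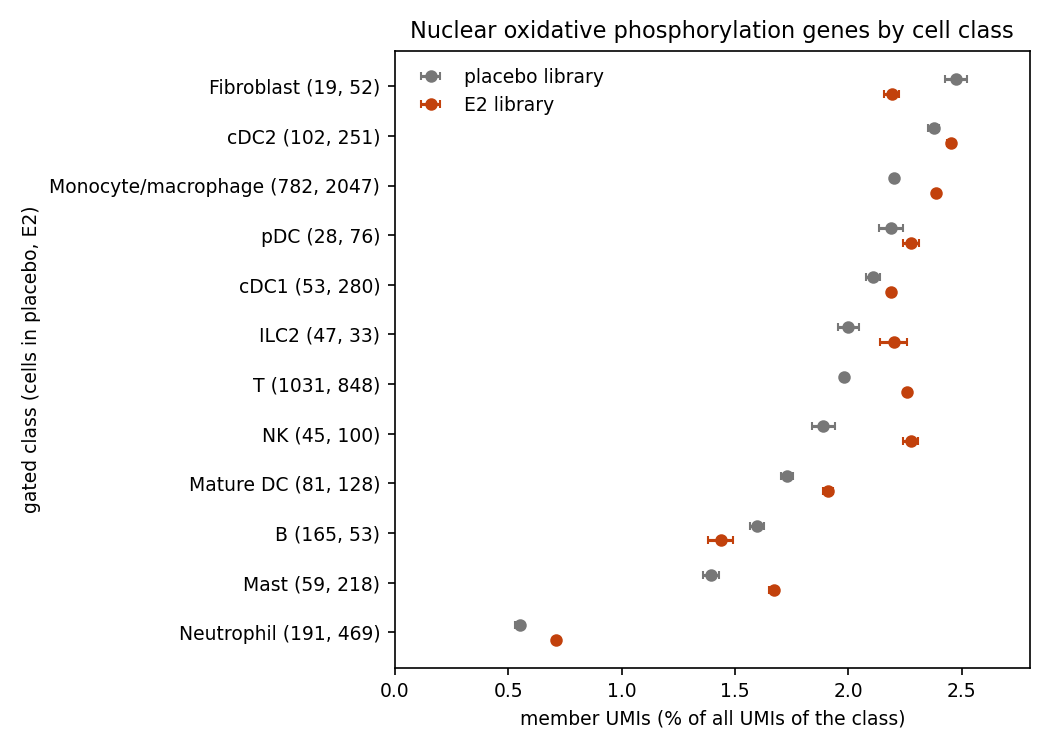
Share of all UMIs taken by the 82 members (x axis, percent) in 12 gated classes (y axis, with cells in placebo and E2), placebo in grey and E2 in red, with exact 95% counting intervals. Neutrophil-gated cells sit at 0.550% and 0.712%, below every other class, and the E2 point lies to the right in 10 of 12 classes.

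The complexes kept nearly the same proportions from class to class. In T cells, complex I made up 30.1% of placebo member UMIs, complex II 1.71%, complex III 11.4%, complex IV 29.3% and complex V 27.5%, and in monocytes/macrophages the same shares were 29.8%, 1.91%, 11.2%, 30.0% and 27.1%. Neutrophils held the largest complex IV share of the 12 classes in both libraries (36.4% and 34.6%, next to 32.4% and 33.4% in mature dendritic cells). Their complex I share was the smallest in placebo (25.03%) and within the range of the other classes in E2 (28.3%). Most members were spread evenly too: in 75 of 82 the class with the highest level held under 2 times the median class, and 73 of 82 had their lowest level in neutrophils. The same shares over all features were not counted, so neither count can be read as particular to the members. Of all features tested, 76.2% in placebo and 76.3% in E2 were lower in neutrophils than in monocytes/macrophages. Levels are CPM, the UMIs of a gene scaled to a common total for each class and library, which count transcript ends and need no division by length.

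Measured against monocytes/macrophages, members summed to a 4.003-fold lower level in neutrophils of the placebo library (95% interval 3.85 to 4.16) and a 3.35-fold lower level in E2 (3.29 to 3.41). All 82 members were lower in E2 and 80 of 82 in placebo, where 76.3% and 76.2% of all features tested were lower. No minimum of neutrophil UMIs was set for these members. Atp5s, Ndufa4l2, Cox4i2 and Cox6a2 rested on 0 or 1 neutrophil UMI in E2, with ratio intervals that hold 1. The members not lower in placebo, Atp5s and Cox6a2, held 1 neutrophil UMI each. At least 3-fold lower were 68 members in placebo and 58 in E2, against 47.6% and 44.7% of all features. The median member log2 ratio was -2.02 in placebo and -1.74 in E2, beside -0.57 and -0.39 over all features. By complex, the placebo gap was 4.77-fold for complex I, 4.34-fold for III, 4.19-fold for V, 3.32-fold for II and 3.30-fold for IV. In E2 it was 3.54-fold, 3.71-fold, 3.60-fold, 2.56-fold and 2.96-fold in the same order.

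Members of complexes I, III and V were among the farthest apart. Ndufc2, a membrane-arm subunit of complex I, stood at 10.2 CPM (5 UMIs) and 11.1 CPM (18 UMIs) in neutrophils against 255 and 288 CPM in monocytes/macrophages, 24.9-fold and 26.0-fold lower. Another gene model overlaps Ndufc2 on the same strand, and the sources used here do not say how shared reads were counted. Ndufa5, a subunit of the matrix arm, stood at 4.09 and 4.92 CPM, from 2 and 8 UMIs, against 112 and 140 CPM. A UMI of Ndufa5 was found in 1.05% and 1.49% of neutrophils and in 61.6% and 69.6% of monocytes/macrophages, whose cells were also deeper (medians of 9739 and 10033 UMIs against 2464 and 3210). After each cell was thinned to 2000 UMIs, which left out 35 and 20 neutrophils and 18 and 42 monocytes/macrophages, the shares of cells with a Ndufa5 UMI were 1.28% and 0.668% against 20.03% and 21.8%. Atp5g1 (18.4 and 39.99 against 310 and 369 CPM) and Atp5g3 (16.4 and 31.996 against 307 and 305 CPM), which encode the same c subunit of the rotor ring of complex V, were also low in neutrophils. Uqcrb, a subunit of complex III, stood at 26.6 and 35.1 CPM against 330 and 366, 12.4-fold and 10.4-fold lower.

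A few members came close to the monocyte/macrophage level. Cox8a, a small subunit of complex IV, stood at 614 and 757 CPM in neutrophils against 999 and 1130, 1.63-fold and 1.49-fold lower. Atp5l, the g subunit in the membrane part of complex V, stood at 215 and 162 CPM against 354 and 261, 1.65-fold and 1.61-fold lower. S100a8 and S100a9, calcium-binding proteins that neutrophils make in bulk, alone took 10.4% and 15.6% of neutrophil UMIs. With their UMIs left out of the total, members took 0.614% and 0.844%.

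**Figure D2:**
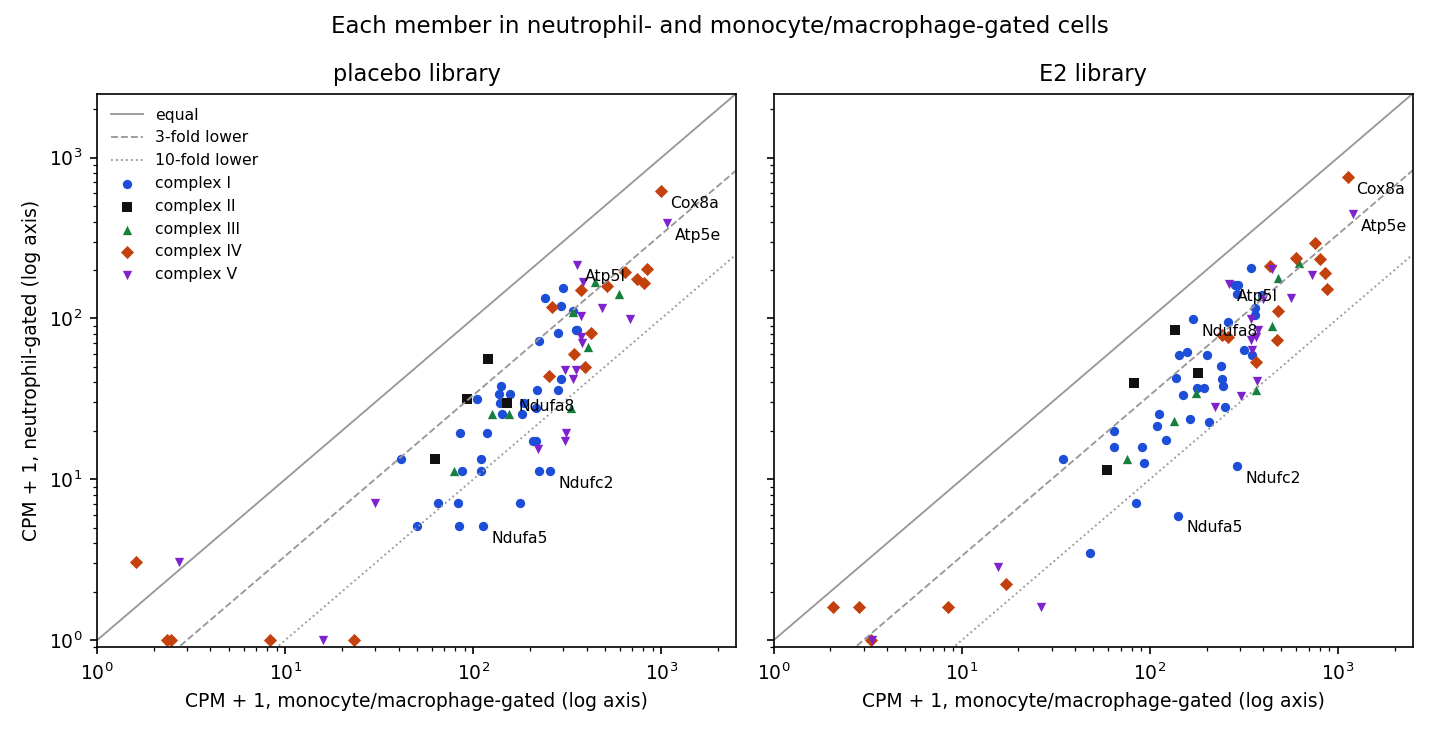
CPM + 1 of each member in monocyte/macrophage-gated cells (x axis) and neutrophil-gated cells (y axis), both log axes, in the placebo (left) and E2 (right) library, with a marker per complex. Most points lie below the dashed 3-fold line (68 and 58 of 82 members), Cox8a and Atp5l lie nearest the line of equal levels among members over 100 CPM in monocytes/macrophages, and Ndufc2 and Ndufa5 lie below the dotted 10-fold line.

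Several complex IV subunits exist in a common form and in a form known from particular tissues, and these gave the sharpest differences between classes. Of the 82 members, 4 reached at least 3 times their median class with at least 20 UMIs there: Cox6a2, Cox6b2, Ndufa4l2 and Atp5sl. The share of all features that did so was not counted, so this count cannot be read as few or many. Cox6a2 (chr7:128205435-128206387, minus strand, GRCm38) is known as the heart and skeletal muscle form of subunit 6a. In pDC it held 283 UMIs (956 CPM) in placebo and 1102 UMIs (1503 CPM) in E2, a ratio of 1.57 (1.38 to 1.80). A UMI was present in 85.7% of 28 placebo pDC and 88.2% of 76 E2 pDC, and in 70.4% and 73.3% after thinning to 2000 UMIs, which left out 1 cell in each library. In T cells, which served as background, 1 cell of 1031 and 1 of 848 had a UMI of Cox6a2 (0.0970% and 0.118%), at median depths of 4701 and 4438.5 UMIs against 9737.5 and 9579 in pDC.

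Outside pDC, Cox6a2 was near 0. Monocytes/macrophages held 5 and 41 UMIs of it, in 5 and 36 cells, although their cells were many times more numerous. The NK placebo class held 26 UMIs of Cox6a2, all in 1 cell, and the NK E2 class held 0. The common form Cox6a1 was present in pDC as in the other classes (193 CPM over both libraries, against 87.04 in neutrophils and 264 in cDC2). Skeletal muscle genes were at or near 0 UMIs in pDC except Atp2a1, the calcium pump gene, with 25 and 98 UMIs.

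The other restricted forms were weaker. Cox6b2, known from testis, reached 73.5 and 61.9 CPM in mast cells, where 37.3% and 30.7% of cells had a UMI of Cox6b2, and 8 of 50 and 15 of 185 after thinning, which left out 9 and 33 mast cells. In T cells, 1.16% and 0.825% had a UMI of Cox6b2. It stood at 47.8 and 36.7 CPM in cDC2 and at 22.1 and 16.1 CPM in monocytes/macrophages. Ndufa4l2, the paralog of Ndufa4 that is known to be induced by low oxygen, had its highest level in fibroblast-gated cells, at 31.6 CPM (12 UMIs) and 125 CPM (91 UMIs). Without the barcodes that occur in both libraries, 1 and 58 of those Ndufa4l2 UMIs were left (19.6 and 92.5 CPM). The more numerous monocytes/macrophages held 11 and 51 UMIs of Ndufa4l2 (1.34 and 2.27 CPM), with up to 34 in 1 E2 cell. Atp5sl was highest in B cells, at 63.1 CPM (42 UMIs) and 32.8 CPM (6 UMIs). Cox4i2, the lung form of subunit 4, stayed at or under 5.41 CPM in every class over both libraries, where Cox4i1 ran from 226 to 813 CPM.

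**Figure D3:**
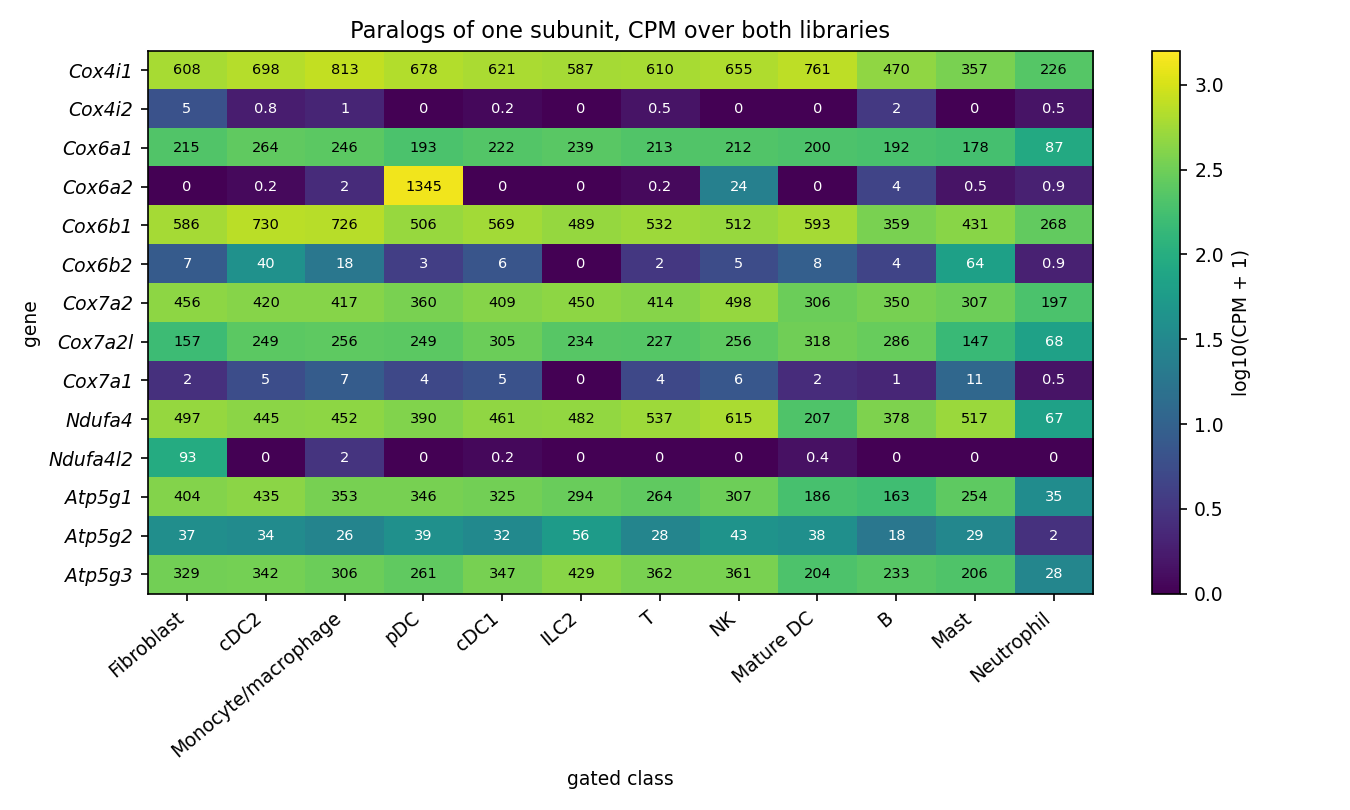
CPM over both libraries (number in each cell, colour on a log10(CPM + 1) scale) of paralogous subunits (rows) in the 12 gated classes (columns). Cox6a2 is brightest in pDC (1345 CPM), Ndufa4l2 is highest in fibroblast-gated cells, Cox6b2 is highest in mast cells, and the common forms such as Cox4i1 and Cox6b1 are present in every class.

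Between the libraries, members took a somewhat larger share in E2 than in placebo in 10 of 12 classes. The ratio of summed member CPM, E2 over placebo, was 1.14 in T cells (1.13 to 1.15), 1.08 in monocytes/macrophages (1.08 to 1.09), 1.29 in neutrophils (1.24 to 1.35) and 1.03 in cDC2 (1.02 to 1.05). In classes with fewer cells it was 1.203 in NK and 1.199 in mast cells, 1.10 in ILC2 and in mature dendritic cells, and 1.04 in cDC1 and pDC. With each cell weighted alike ILC2 turned lower, and the median ILC2 cell held 1.89% member UMIs in placebo and 1.79% in E2. B cells (0.900, 0.862 to 0.940) and fibroblast-gated cells (0.886, 0.863 to 0.909) had the lower level in E2. The median B cell did not follow the sum, at 1.40% member UMIs in placebo and 1.42% in E2. Without the barcodes shared by both libraries the fibroblast direction turned, from 1.85% in 10 placebo cells to 2.27% in 45 E2 cells. It turned with equal cell weights as well, and the median fibroblast-gated cell held 2.18% in placebo and 2.28% in E2. With cells thinned to 2000 UMIs B was the only lower class.

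Other broad measures moved alongside. The share of cytosolic ribosomal protein UMIs was 19.7% in placebo and 21.7% in E2 T cells, 16.2% and 17.6% in monocytes/macrophages, 2.43% and 2.85% in neutrophils, and 19.0% and 20.6% in cDC2. In fibroblast-gated cells it was 15.5% and 12.8%, and 10.8% and 13.6% without the barcodes found in both libraries, so its direction turned with that of the members. In B cells it was 19.1% and 26.7%, opposite to the summed member share. Cells with a UMI of a cycling gene made up 25.1% and 26.3% of T cells, 14.5% and 16.6% of monocytes/macrophages and 35.3% and 33.9% of cDC2. Ratios without ribosomal protein genes in the total and without cycling cells are given further below for T cells, monocytes/macrophages and cDC2. What part these measures have in the member ratios was not tested.

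In T cells, 69 of 79 members with at least 20 UMIs had a higher CPM in E2, where 37.4% of all features tested did, and 45.2% of features with a mean of at least 100 CPM. At least 1.2-fold higher were 22 members, against 14.5% of features, and at least 1.2-fold lower were 3, against 32.5%. The median member log2 ratio, with a pseudocount of 10 CPM, was 0.19, and that of all features -0.07. The summed ratio was close to even across complexes: 1.14 for I, 1.15 for II, 1.12 for III, 1.16 for IV and 1.13 for V. Higher in E2 were 33 of 36 members of complex I, 2 of 4 of II, 7 of 8 of III, 14 of 14 measured of IV and 13 of 17 of V. Without cells that had a UMI of a cycling gene, 11 members were at least 1.2-fold higher. With median-of-ratios scaling, which moved every log2 ratio in T cells up by 0.11, the number was 53. The share over all features was not counted under either setting.

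In complex I of T cells, Ndufv2, an iron-sulfur subunit at the NADH end, stood at 104 CPM in placebo and 141 in E2, a ratio of 1.35 (1.21 to 1.52). Ndufc1, of the membrane arm, stood at 125 and 164 CPM (1.31, 1.19 to 1.46). Ndufs1, which carries further iron-sulfur clusters, was lower, at 50.2 and 40.1 CPM (0.799, 0.662 to 0.963). Ndufb4, an accessory subunit of the membrane arm, stood at 62.3 and 53.1 CPM (0.852), with an interval that holds 1 (0.723 to 1.004). In complex II the iron-sulfur subunit Sdhb (127 and 165 CPM) and the membrane anchor Sdhd (74.1 and 98.0) were higher. The flavoprotein Sdha (97.0 and 89.4) and the other anchor Sdhc (39.7 and 37.8) had ratios whose intervals hold 1.

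Further along the chain in T cells, Uqcrfs1, the Rieske iron-sulfur protein of complex III, stood at 141 and 179 CPM, and Uqcr10 at 326 and 396. Uqcrh, the hinge protein beside cytochrome c1, gave 747 and 743 CPM, and Cox7a2l 227 in both libraries, each with an interval that holds 1. In complex IV, Cox5b stood at 420 and 543 CPM and Ndufa4 at 475 and 612. In complex V, Atp5g1 stood at 229 and 305 CPM, a ratio of 1.33 (1.23 to 1.43), and the central stalk subunit Atp5c1 at 268 and 338. Atp5l was the lowest of the T members, at 290 and 220 CPM, a ratio of 0.757 (0.700 to 0.819).

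Within T cells the members were higher in E2 in each gated subset. Regulatory T cells (Foxp3; 328 placebo and 256 E2 cells) had a summed ratio of 1.18 with 68 of 76 members higher, where 38.5% of features were. CD8 T cells (179 and 102) had a ratio of 1.11 with 55 of 76 higher against 39.6% of features. CD4 T cells without Foxp3 (203 and 128) had a ratio of 1.12 with 62 of 76 higher against 44.5%. Whether the subsets differ in ratio beyond the spread between animals cannot be read from 1 library each.

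In monocytes/macrophages, 63 of 82 members were higher in E2, where 41.2% of all features and 44.1% of features with a mean of at least 100 CPM were. The steps were small: 7 members were at least 1.2-fold higher, against 18.3% of features, and 4 at least 1.2-fold lower, against 27.8%. The median member log2 ratio was 0.10, beside -0.04 over all features. The ratio by complex was 1.09 for I, 1.08 for II and III, 1.10 for IV and 1.06 for V. Higher were 31 of 36 members of complex I, 2 of 4 of II, 7 of 8 of III, 13 of 17 of IV and 10 of 17 of V. With median-of-ratios scaling, which moved every log2 ratio in this class up by 0.076, 72 of 82 were higher. The share over all features was not counted under that scaling. The Ly6c2 monocytes within this class (165 and 462 cells) gave a ratio of 1.09 with 59 of 78 members higher against 42.0% of features, and the C1q macrophages (327 and 957) 1.07 with 55 of 82 against 41.6%.

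The 3 highest monocyte/macrophage members were all in complex I. Ndufv2 stood at 118 and 149 CPM (1.26, 1.17 to 1.36), Ndufa5 at 112 and 140 (1.25, 1.17 to 1.35) and Ndufb8 at 281 and 347 (1.23, 1.18 to 1.29). Ndufb8 is overlapped by a gene model on its own strand. Sdhb (151 and 180 CPM) and Sdhd (118 and 135) were again higher and Sdha lower (91.2 and 81.2 CPM, 0.890, 0.817 to 0.970). In complexes III and IV, Uqcr10 stood at 339 and 387 CPM, Cox6b1 at 642 and 757 and Ndufa4 at 390 and 475. In complex V, Atp5g1 stood at 310 and 369 CPM and Atp5j2, the f subunit, at 483 and 561. Lowest were Cox6b2 (22.1 and 16.1 CPM, 0.727), Atp5l (354 and 261 CPM, 0.737, 0.705 to 0.771) and Ndufb4 (83.9 and 63.0 CPM, 0.751, 0.685 to 0.824).

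Neutrophils had the widest difference of the 4 classes, from the lowest base. A higher CPM in E2 was found for 63 of 71 measured members, where 48.1% of all features and 39.3% of features with a mean of at least 100 CPM were higher. At least 1.2-fold higher were 54, against 33.4% of features, and at least 1.2-fold lower 3, against 35.1%. The median member log2 ratio was 0.39, beside -0.03. Complex I had a ratio of 1.46 (1.35 to 1.59) and complex II 1.40, while complexes III, IV and V had 1.27, 1.23 and 1.23. Higher were 31 of 33 measured members of complex I, 3 of 4 of II, 7 of 8 of III, 9 of 12 of IV and 13 of 14 of V. The placebo class was small and shallow, with 191 cells and a median of 2464 UMIs, against 469 cells and 3210 UMIs in E2.

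Among neutrophil members with at least 100 UMIs, Ndufa8, an accessory subunit of complex I on the intermembrane side, stood at 32.7 CPM (16 UMIs) in placebo and 97.8 CPM (159 UMIs) in E2, a ratio of 2.99 (1.78 to 5.35). Ndufs7, which carries the last iron-sulfur cluster before ubiquinone, stood at 28.7 and 60.9 CPM (2.13, 1.21 to 4.03). Its counts were 14 and 99 UMIs. Atp5h, the d subunit of the peripheral stalk of complex V, stood at 98.2 and 185 CPM (1.89, 1.39 to 2.61). The minimum of 100 UMIs was set on both libraries together, and the neutrophil classes held 488654 UMIs in placebo and 1625223 in E2. Ndufa8 and Ndufs7 met it mainly through E2, so the minimum favours members that are higher there. Ndufs6, singled out after its values were seen, had 3 and 58 UMIs (6.14 and 35.7 CPM). Cox6a1 was lower in E2, at 117 and 78.1 CPM (0.670, 0.486 to 0.933), as was Atp5l, at 215 and 162 CPM (0.756, 0.601 to 0.957). Cox7b, at 59.3 and 52.9 CPM, had an interval that holds 1 (0.579 to 1.41).

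The cDC2 showed the least. There, 46 of 79 members were higher in E2, beside 38.2% of all features and 45.6% of features with a mean of at least 100 CPM. At least 1.2-fold higher were 3, against 17.1% of features, and at least 1.2-fold lower 10, against 34.2%. The 3 became 16 with cells thinned and 14 with median-of-ratios scaling. With that scaling, which moved every log2 ratio in cDC2 up by 0.11, 58 of 79 were higher. Without cells that had a UMI of a cycling gene 28 of 77 were, when the summed log2 ratio turned from 0.05 to -0.05. Shares over all features were not counted under these settings, so the shares above cannot be set beside these counts. The ratio by complex was 1.01 for I (0.989 to 1.03), 0.955 for II, 1.05 for III, 1.07 for IV and 1.01 for V, with 20 of 36, 2 of 4, 6 of 8, 10 of 14 and 8 of 17 members higher. Highest were Ndufa5 (127 and 162 CPM), Ndufv3 (195 and 239) and Atp5j2 (498 and 603), of which Ndufa5 turned lower when cells were thinned (log2 -0.04). Lowest were Ndufb4 (89.6 and 61.9 CPM, 0.691, 0.554 to 0.863), Atp5g2 (43.1 and 29.9) and Ndufa12 (121 and 87.6).

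**Figure D4:**
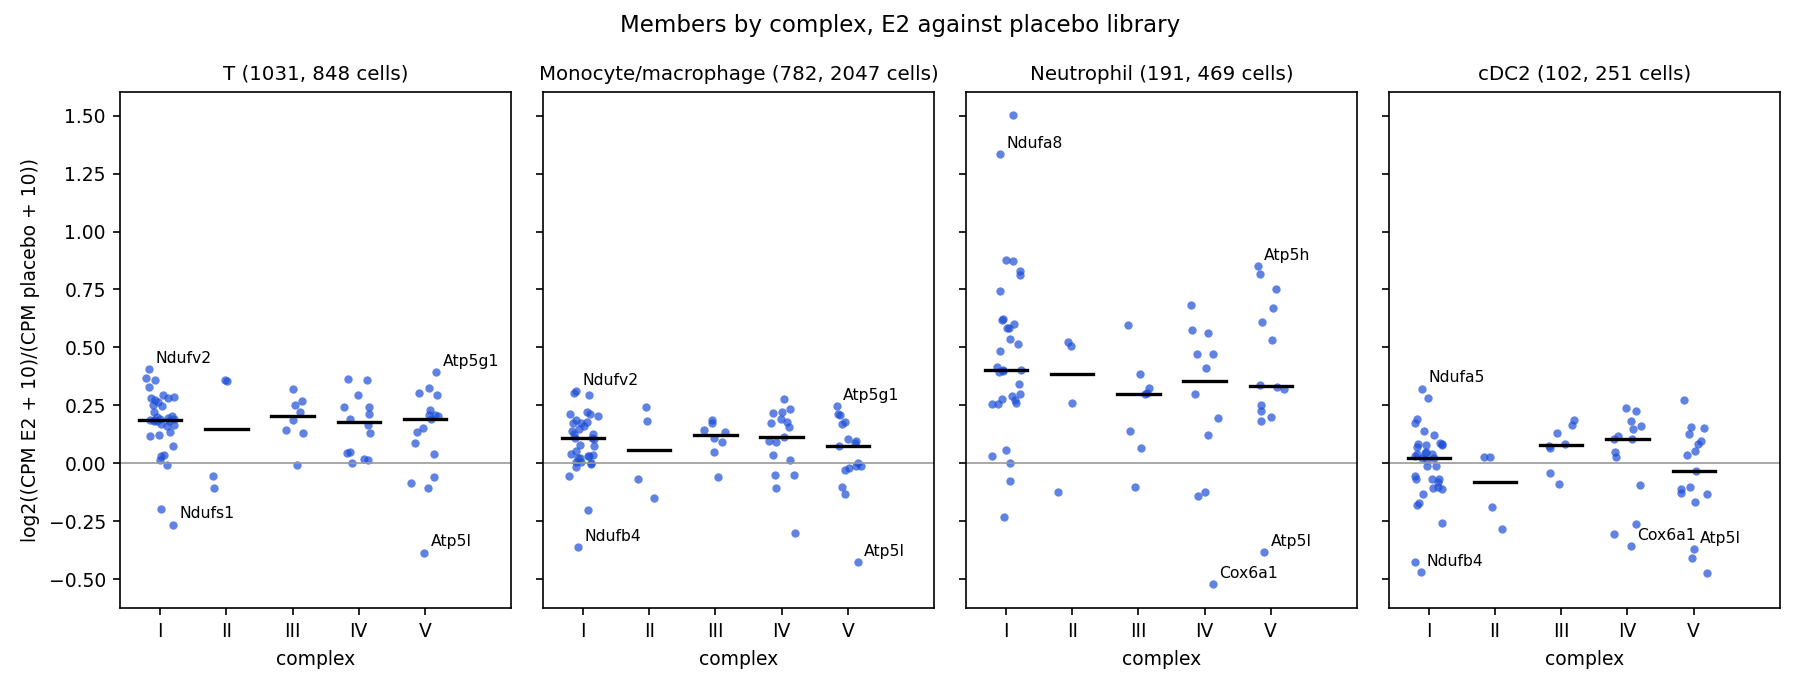
Difference between libraries, log2((CPM E2 + 10)/(CPM placebo + 10)) on the y axis, for each member with at least 20 UMIs in the class, by complex (x axis) in the 4 classes with at least 100 cells per library; black bars are medians. T, monocyte/macrophage and neutrophil points lie mostly above 0 (69 of 79, 63 of 82 and 63 of 71), the cDC2 points lie on both sides, and Atp5l lies below 0 in each panel.

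Of the 71 members with at least 20 UMIs in each of 12 classes, 25 were higher in E2 in at least 10 classes, where 10.4% of 2689 features were. Another 5 were lower in at least 9, where 37.6% of features were: Atp5l, Ndufb4, Cox6a1, Sdhc and Atp5a1. Atp5l was lower in all 12, where 3.79% of features were lower in every class. Its CPM in placebo and E2 was 290 and 220 in T cells, 232 and 215 in NK, 303 and 206 in ILC2, 195 and 115 in B, 354 and 261 in monocytes/macrophages and 215 and 162 in neutrophils. Atp5l stood at 200 and 162 CPM in mast cells, 318 and 226 in cDC1, 337 and 258 in cDC2, 279 and 239 in mature dendritic cells, 328 and 218 in pDC and 287 and 200 in fibroblast-gated cells (275 and 206 without the barcodes found in both libraries). The counting interval of its ratio held 1 in NK, mast and mature dendritic cells. Atp5l stayed lower in all 12 classes under every alternative run. Its gene lies at chr9:44912557-44920742 (minus strand), and pseudogenes of it in the annotation, left out of the members, could share reads with it.

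Ndufa8 and Ndufb11, an accessory subunit of complex I encoded on the X chromosome, were higher in E2 in all 12 classes, where 0.632% of features were. Ndufa8 stood at 133 and 173 CPM in T cells, 100 and 145 in NK, 118 and 124 in ILC2, 93.1 and 98.6 in B, 156 and 169 in monocytes/macrophages and 75.7 and 113 in mast cells. In the dendritic classes Ndufa8 stood at 107 and 143 CPM (cDC1), 148 and 162 (cDC2), 75.9 and 103 (mature) and 135 and 142 (pDC). Ndufb11 stood at 284 and 313 CPM in T cells, 277 and 365 in NK, 284 and 339 in ILC2, 233 and 241 in B and 221 and 258 in monocytes/macrophages. Many of these steps are small, and the count of 12 did not hold under every alternative: it was 10 for each gene with cells thinned to 2000 UMIs and without cycling cells, 10 for Ndufa8 and 11 for Ndufb11 without doublet removal, and 11 for Ndufb11 with equal cell weights. Besides these, 6 members were higher in 11 classes and 17 in 10, among them Atp5g1. Atp5l, Ndufa8, Ndufb11, Ndufb4, Cox6a1 and Atp5g1 are shown further, and all 6 were singled out after their values were seen.

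To show what lies before these 6 genes, the 150 bases that end just before the RefSeq or GENCODE M21 start, whichever lies further upstream, are printed 5′ to 3′ from RefSeq's GRCm38.p6 table, the lower-in-E2 genes first. Capitals mark letters found by a search for GCGCA-N-GCGC (NRF1, a known activator of respiratory genes), CCGGAAG (ETS factors such as GABP), AAGATGGCG (YY1) and ACGTG, on both strands. For Ndufb4, Cox6a1, Atp5g1 and Ndufa8 the printed bases end 85, 23, 39 and 68 bases upstream of the RefSeq start.
Atp5l, chr9:44920743-44920892, minus strand: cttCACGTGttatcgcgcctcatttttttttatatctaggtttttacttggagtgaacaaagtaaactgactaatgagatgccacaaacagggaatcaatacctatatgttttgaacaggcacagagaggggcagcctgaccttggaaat
Ndufb4, chr16:37654454-37654603, minus strand: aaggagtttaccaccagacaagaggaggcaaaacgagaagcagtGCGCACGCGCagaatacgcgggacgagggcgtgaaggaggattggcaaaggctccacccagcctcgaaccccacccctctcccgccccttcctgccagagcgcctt
Cox6a1, chr5:115348982-115349131, minus strand: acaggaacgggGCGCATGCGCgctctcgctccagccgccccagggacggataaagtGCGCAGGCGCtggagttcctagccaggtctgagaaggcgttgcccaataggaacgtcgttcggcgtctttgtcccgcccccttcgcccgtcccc
Atp5g1, chr11:96075671-96075820, minus strand: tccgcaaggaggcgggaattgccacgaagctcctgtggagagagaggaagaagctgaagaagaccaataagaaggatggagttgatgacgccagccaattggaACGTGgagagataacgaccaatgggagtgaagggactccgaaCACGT
Ndufa8, chr2:36049407-36049556, minus strand: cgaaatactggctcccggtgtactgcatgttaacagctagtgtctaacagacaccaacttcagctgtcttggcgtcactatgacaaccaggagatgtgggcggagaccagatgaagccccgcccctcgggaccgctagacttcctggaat
Ndufb11, chrX:20617620-20617769, minus strand: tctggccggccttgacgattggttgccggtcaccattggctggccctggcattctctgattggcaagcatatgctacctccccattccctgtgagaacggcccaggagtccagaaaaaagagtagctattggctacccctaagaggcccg
The 150 bases before Atp5l were the poorest of the 6 in G and C (40%, with 3 CG pairs), and Cox6a1 the richest (66.7%, with 17 CG pairs). In the whole windows, 250 bases before to 50 after the RefSeq start, NRF1 letters stood at 3 places for Ndufb4, 2 for Cox6a1 and 1 for Ndufa8, some of them outside the printed bases. ETS letters stood at 2 places for Atp5l and 1 for Cox6a1, also outside them, and ACGTG stood in the windows of Atp5l and Atp5g1. The window of Ndufb11 held none of the 4 sets of letters. A match is a description of these bases, not a shown binding site.

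**Figure D5:**
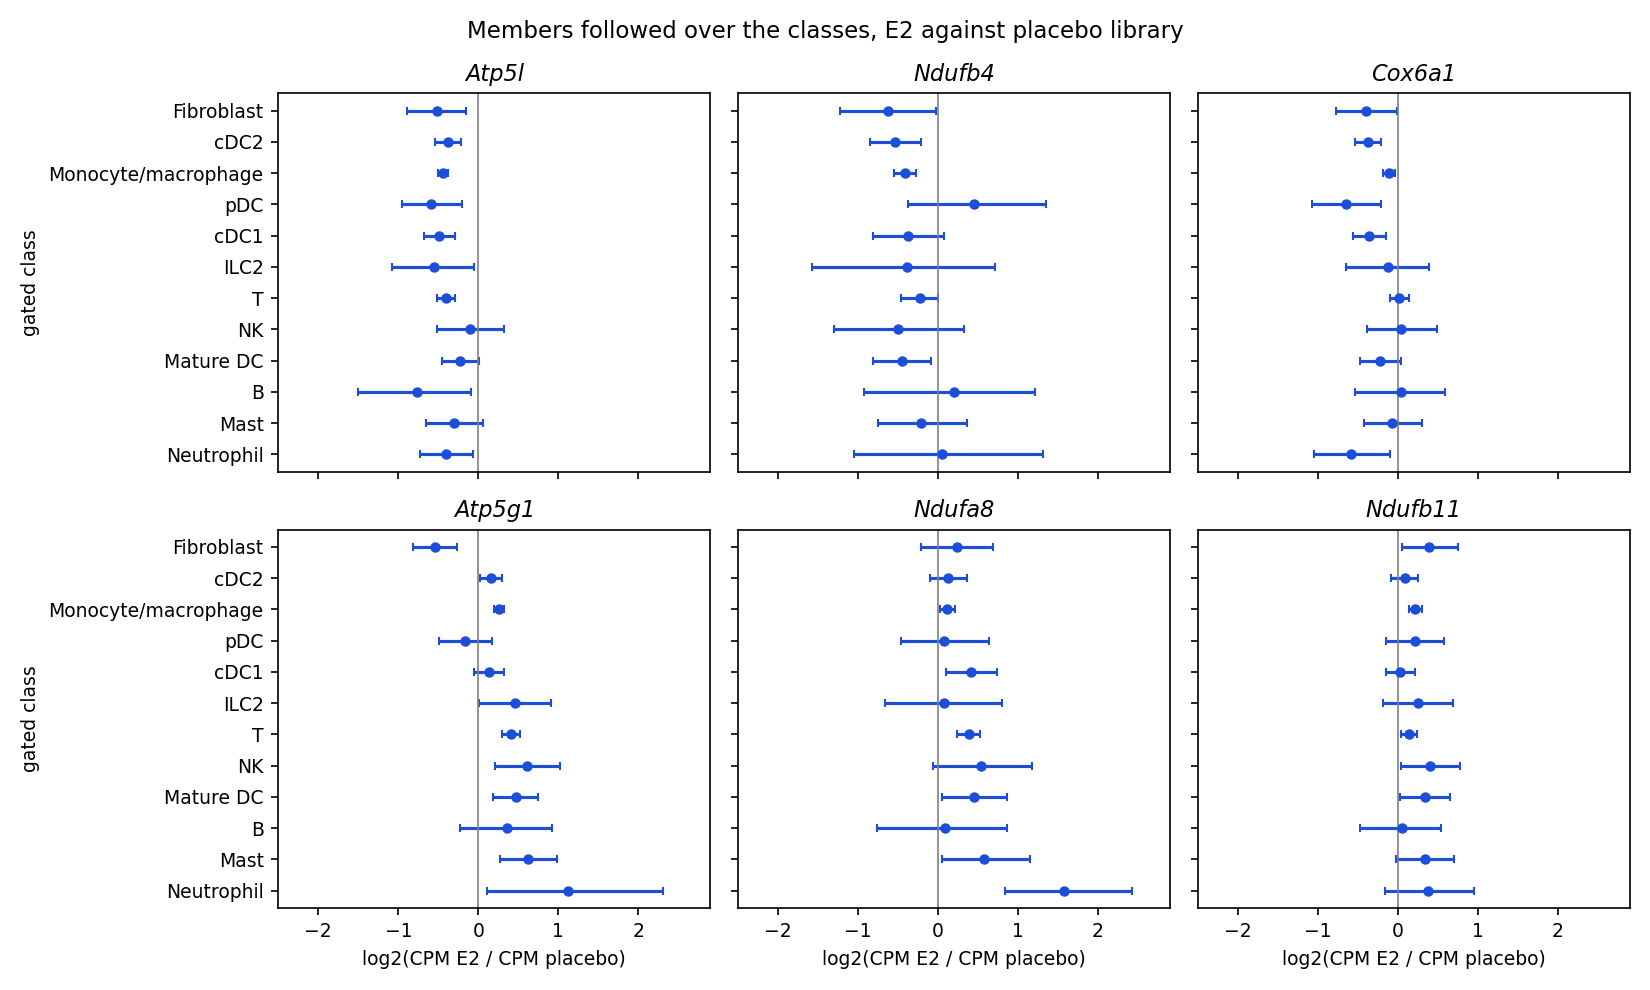
Difference between libraries, log2(CPM E2 / CPM placebo) on the x axis, of 6 members in 12 gated classes (y axis), with 95% counting intervals. Atp5l lies left of 0 in every class, Ndufa8 and Ndufb11 right of 0 in every class, Ndufb4 and Cox6a1 left of 0 in 9 and Atp5g1 right of 0 in 10, and many intervals in the smaller classes cross 0.

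Looked at as a set, the windows of 250 bases before to 50 bases after each start were compared with all such windows in the RefSeq table (GRCm38.p6). Of the 82 members, 65 had an entry, with 70 windows. The NRF1 letters, GCGCA and GCGC with any 1 base between them, on either strand, were in 25.7% of member windows and 4.603% of all 32851 windows. The ETS letters CCGGAAG were in 22.9% and 8.86%, and the YY1 letters AAGATGGCG in 10.0% and 1.40%. ACGTG, the core read by HIF and by E-box factors, which palindromic CACGTG holds on both strands, was in 22.9% and 19.6%. At least 1 of the first 3 was in 35 of 70 member windows and 13.6% of all windows. Member windows were also richer in G and C (median 60.0% against 54.0%) and in CG pairs (11 against 4), and the part of base composition in these shares was not tested. By complex, NRF1 letters were found for 7 of 32 members of complex I, 2 of 3 of II, 1 of 5 of III, 1 of 12 of IV and 6 of 13 of V.

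The neighbouring pathways were counted by the same rule, as genes with a higher CPM in E2, beside 37.4% of all features in T cells, 41.2% in monocytes/macrophages, 48.1% in neutrophils and 38.2% in cDC2. Mitochondrial ribosomal proteins, which build the subunits encoded in mitochondrial DNA, were higher for 67 of 76 in T cells, 58 of 76 in monocytes/macrophages, 24 of 31 in neutrophils and 30 of 76 in cDC2, the last near the share over all features. Mrpl12, for example, stood at 59.5 and 88.1 CPM in T cells. Import and cristae genes were higher for 20 of 22, 15 of 22, 6 of 7 and 10 of 22, in the same order of classes. Carriers and uncoupling genes were higher for 7 of 7, 5 of 7, 5 of 6 and 6 of 7. Slc25a4, an ADP/ATP exchanger of the inner membrane, stood at 94.1 and 135 CPM in monocytes/macrophages.

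Genes that build or restrain the complexes came next. Assembly factors were higher for 27 of 45 in T cells, 28 of 45 in monocytes/macrophages, 11 of 17 in neutrophils and 17 of 43 in cDC2, again near the share over all features there. The log2 ratio of their summed CPM was 0.05, 0.004, -0.39 and -0.10 in the same order, so the neutrophil sum ran against the count. Cox17, the copper chaperone of complex IV, was lower, at 251 and 190 CPM in monocytes/macrophages, 948 and 467 in neutrophils and 310 and 210 in cDC2. In T cells Tmem70, Cox18 and Tmem126a were higher, with ratios of 1.61, 1.54 and 1.38. The ATP synthase inhibitor and supercomplex factors were higher for 3 of 3, 2 of 3, 3 of 3 and 3 of 3. Atpif1, the inhibitor, stood at 165 and 212 CPM in T cells and 342 and 434 CPM in monocytes/macrophages. Cytochrome c and c1 (Cycs and Cyc1), which the symbol rule leaves out, were higher for 2 of 2, 2 of 2, 1 of 2 and 0 of 2.

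Genes upstream of the chain or known to regulate it were counted too. Tricarboxylic acid cycle genes, which feed complexes I and II, were higher for 13 of 19 in T cells, 6 of 19 in monocytes/macrophages, 10 of 12 in neutrophils and 6 of 19 in cDC2. Regulators of mitochondrial DNA and biogenesis were higher for 7 of 15, 4 of 16, 4 of 8 and 4 of 14. Esrra, a nuclear receptor known to drive mitochondrial genes, stood at 35.9 and 25.4 CPM in monocytes/macrophages. Superoxide and peroxide defence genes were higher for 6 of 8, 3 of 8, 3 of 6 and 4 of 8, with Sod2, the mitochondrial dismutase, at 360 and 178 CPM, Gpx4 at 194 and 341 and Prdx5 at 1001 and 1613 in neutrophils. Glycolysis genes were higher for 3 of 16 in T cells, 2 of 16 in monocytes/macrophages, 10 of 15 in neutrophils and 9 of 15 in cDC2. Hexokinase Hk2 stood at 230 and 134 CPM and the glucose transporter Slc2a1 at 80.2 and 46.0 CPM in monocytes/macrophages.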

How the data were processed

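Raw counts of UMIs per gene and barcode were deposited for 1 placebo and 1 E2 library. Cell Ranger 3.1.0 and the build mm10 are named for them, per the submitters' processing notes. The sources used here do not say how the deposited barcodes were selected.

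Barcodes with under 200 genes were dropped (15 placebo, 26 E2). Scrublet scores (scanpy 1.11.5) were ranked and the top 0.8% per 1000 barcodes removed as doublets (98 and 268). Cells were gated by summed UMIs of marker genes, from 2 to 20 by class; cells in no gate (713 and 851) or in more than 1 (45 and 74) entered no class. Gene positions came from GENCODE M21 (GRCm38). UMIs were summed per class and library and scaled to CPM. Sums and ratios carry exact Poisson and conditional-binomial 95% intervals, and shares of cells exact Clopper-Pearson intervals. Reads are copies of UMI-tagged molecules, so these cover counting error only. Between the libraries, a member was counted in a class with at least 20 UMIs there over both libraries. The counts of neutrophils against monocytes/macrophages took every member.

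Named were, in each of the 4 classes with 100 or more cells per library, the 3 highest and 3 lowest members by log2 ratio (pseudocount 10 CPM) with at least 100 UMIs, the 2 highest and 2 lowest of each complex in the 2 largest classes, and members at least 3 times their median class; from other lists, up to 3. Members and lists were chosen with earlier results of these data known. Simulated counts with known folds were run through the same interval calculation. They were drawn as independent Poisson counts, so they cannot show whether the intervals hold for UMIs clustered within cells. Alternatives were thinning to 2000 UMIs, other scalings, equal cell weights, looser and stricter gates, no doublet removal, no cycling cells, other minimums and pseudocounts, and, added after seeing the data, leaving out barcodes found in both libraries. Python 3.11.15, numpy 2.4.6, scipy 1.17.1, pandas 2.3.3 and matplotlib 3.10.9 were used.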

Additional observations from a re-analysis of the deposited data

Results flagged for a closer look

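B-gated cells had a lower summed member CPM in E2, with a ratio of 0.900, while 10 of 12 classes had a higher one. The median B cell did not follow the sum, at 1.40% member UMIs in placebo and 1.42% in E2. Fibroblast-gated cells also had a lower summed member CPM, with a ratio of 0.886, and turned higher without the barcodes found in both libraries. These sums stand out because their direction is opposite to that of the other classes, and the difference between classes was not tested.

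Among barcodes that fell in no gate and were used in no comparison, 24 of the E2 library held at least 10 UMIs of Ctsk, Acp5 and Atp6v0d2, genes known from osteoclasts. Members took 4.83% of their UMIs (4.78% to 4.89%). The placebo library held 0 such barcodes among 713 ungated ones. These barcodes were picked after their values were seen.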

How the results depend on the processing

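With 1 library per group, no spread between animals can be estimated, and depth limits neutrophils most. No paired analysis was possible because each group held 1 library. Neutrophils stayed the lowest class in both libraries under each alternative run on class levels. Monocytes/macrophages lay above neutrophils 3.68-fold in placebo and 3.03-fold in E2 with equal cell weights, 4.66-fold and 3.95-fold without ribosomal protein genes in the total, and 3.60-fold and 3.06-fold with cells thinned to 2000 UMIs.

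The summed log2 ratio in T cells was 0.15 thinned, 0.22 without ribosomal protein genes, 0.30 with median-of-ratios scaling, 0.15 with equal weights and 0.15 without cycling cells. In monocytes/macrophages it was 0.14, 0.19 and 0.10 without ribosomal protein genes, with median-of-ratios scaling and without cycling cells, and the median over members was 0.10. In cDC2 it was 0.075, 0.16 and 0.025 without ribosomal protein genes, with median-of-ratios scaling and with equal weights, and it reversed to -0.048 without cycling cells, where 28 members were higher.

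Members at least 1.2-fold higher numbered 53 (T), 23 (monocyte/macrophage) and 14 (cDC2) with median-of-ratios scaling. Without cycling cells they numbered 11 in T cells and 1 in cDC2. In cDC2 they numbered 16 thinned, 1 with equal weights and 5 with stricter gates. Members at least 1.2-fold lower numbered 6 in T cells with equal weights, and 7 in monocytes/macrophages and 6 in neutrophils when thinned. Shares over all features were not counted under the alternatives, so these counts cannot be read as particular to the members. Of 96 values for the share of members in each class, 28 stayed within counting error and 68 moved further. Of 522 values of named members under the alternatives, 482 stayed within counting error, 39 moved further and 1 reversed: Ndufa5 in cDC2, at -0.037 when thinned. The 210 values for the T and monocyte/macrophage subsets were log2 ratios and counts of members. Of these, 182 stayed the same, meaning within counting error for a ratio and within a fixed fold for a count. No ratio reversed, and counts had no such label. The cause of each shift was not tested.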

Other observations

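The 24 ungated E2 barcodes with Ctsk, Acp5 and Atp6v0d2 held 553276 UMIs, with a median of 22485.5, and each had a UMI of Ptprc. Members took a 2.03-fold larger share there than in E2 monocytes/macrophages, and the median barcode held 4.67% member UMIs, with a range of 1.76% to 6.65%. Of 82 members, 78 were higher than in monocytes/macrophages and 65 at least 1.5-fold higher. The share over all features was not counted here, so these counts cannot be read as particular to the members. Complex II was 2.65-fold higher, complex III 2.43-fold, complex IV 2.08-fold, complex V 2.03-fold and complex I 1.78-fold. Sdha, the flavoprotein of complex II, stood at 295 CPM against 81.2. Ndufab1, an acyl carrier protein that is also a complex I subunit, stood at 432 CPM against 120. Cox7a1, known as the heart and skeletal muscle form of subunit 7a, stood at 45.2 CPM against 7.48. The other ungated barcodes held 1.75% member UMIs in placebo and 2.09% in E2.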
